A study of Mus musculus with 2 samples.

Results

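The genes described are the HIF pathway and its targets outside glycolysis: the subunits of the hypoxia-inducible factors (HIF), the enzymes that sense oxygen and switch HIF off, and genes known to be induced by HIF when oxygen is low. They were taken from a list of 35 gene symbols, and every probe set that the platform annotation assigns to exactly 1 of them was used. Of the 35 genes, 34 had such a probe set, 81 in all, out of 18193 genes on the array. Bnip3l had none, because the 3 probe sets annotated to it also name a second gene. The groups were whole lung of TAZ-deficient mouse embryos and whole lung of their wild type littermates, both at E15.5. TAZ is a transcriptional coactivator of the Hippo pathway, encoded by Wwtr1. Per the design text, total RNA of 4 lung samples was pooled for each group, and each pool was measured on 1 Affymetrix mouse expression array. How the TAZ deficiency was made, and in which strain, is not given in the sources used here.

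Each group being a single pool on a single array, the spread between animals is unknown, and no difference below comes with a test, an SD or a p-value. Signals are in array units on a linear scale. The median signal of all non-control probe sets, 15.2, served as a floor: lower values were raised to it. Each log2 ratio is TAZ-deficient over wild type. Genes whose brightest probe set passed the floor on at least 1 array were counted as measured. They were 12032 in number, among them all 34 pathway genes with a probe set. The disagreement between probe sets of the same gene is the only error available. Over 5637 genes with 2 probe sets above the floor, the SD of a single log2 ratio was 0.20, and it was 0.12 for the 2330 genes whose probe sets were all above 106.3. A 1.2-fold difference is 0.26 on the log2 scale. In whole lung, fewer cells of a type and less RNA per cell cannot be told apart.

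HIF is a pair of a labile alpha subunit and a stable beta subunit. With oxygen present, prolyl hydroxylases mark the alpha subunit for capture by the von Hippel-Lindau protein and for degradation, and an asparaginyl hydroxylase blocks its contact with coactivators. When oxygen is low the alpha subunit lasts, pairs with the beta subunit and binds a short core motif in promoters and enhancers. Control is therefore mainly on the protein, which an RNA array does not measure. The embryonic lung grows in low oxygen, and HIF-dependent genes such as Vegfa act in its vascular growth.

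The genes of the pathway had mostly higher signals in TAZ-deficient lung, by small amounts. Of 34 measured genes, 28 had a log2 ratio above 0, against 46.8% of all measured genes, and the median log2 ratio was 0.15, against -0.01 over all measured genes. At least 1.2-fold higher were 9 of the 34, against 8.03% of all measured genes. These were Ankrd37, P4ha1, Bnip3, Ak4, P4ha2, Egln3, Car9, Hmox1 and Adm. None of the 34 was at least 1.2-fold lower, against 10.6% of all measured genes. Ankrd37 was the only one at least 1.5-fold higher, against 1.28% of all measured genes, and none was 1.5-fold lower (1.47%). The other 25 genes lay within 1.2-fold.

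**Figure D1:**
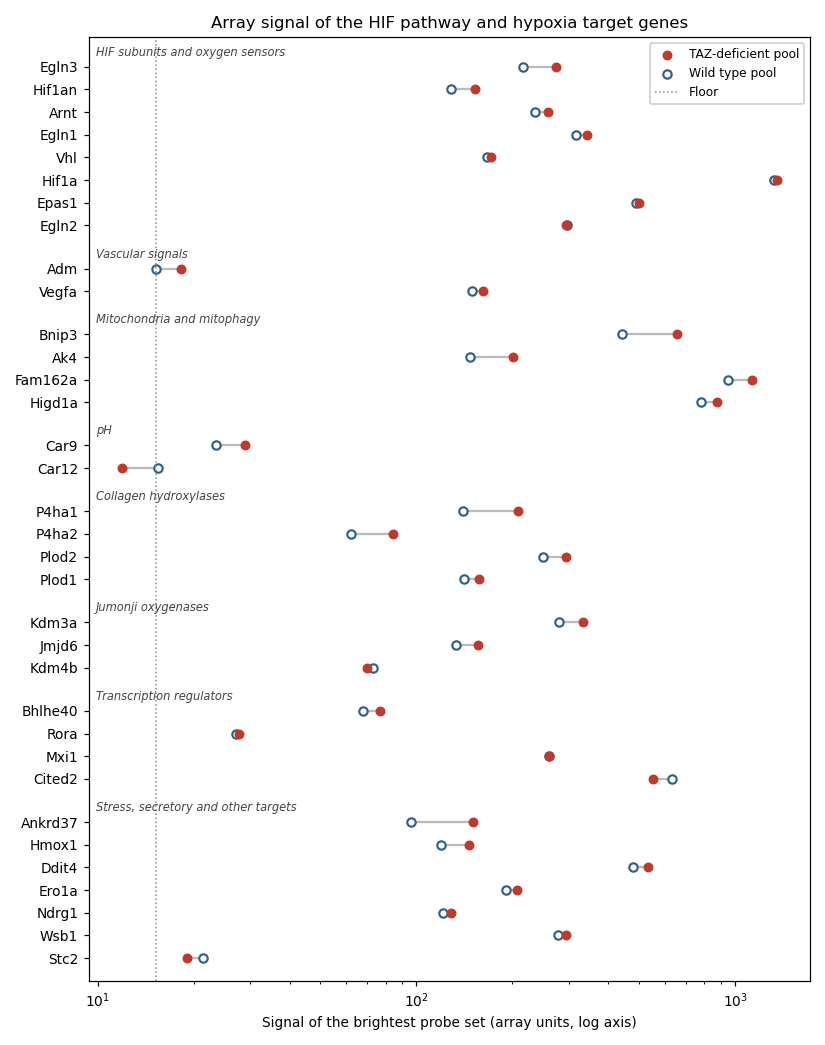
Signal of the brightest probe set of each of 34 genes (x axis, array units, log scale) in the TAZ-deficient pool (filled red) and the wild type pool (open blue), 1 array each, with genes grouped by role. The dotted line is the floor of 15.2, and the widest upward gaps are those of Ankrd37, P4ha1 and Bnip3.

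Dim genes have noisier ratios, so the counts were also taken over bright genes. With both signals above 106.3, 22 of 25 pathway genes had a ratio above 0, against 49.2% of such genes on the array. At least 1.2-fold higher were 5 of the 25, namely P4ha1, Bnip3, Ak4, Egln3 and Hmox1, against 3.12%, and none was 1.2-fold lower (3.98%). None was 1.5-fold higher (0.208%). The shift of the list was thus present among the bright genes, where ratios spread least.

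**Figure D2:**
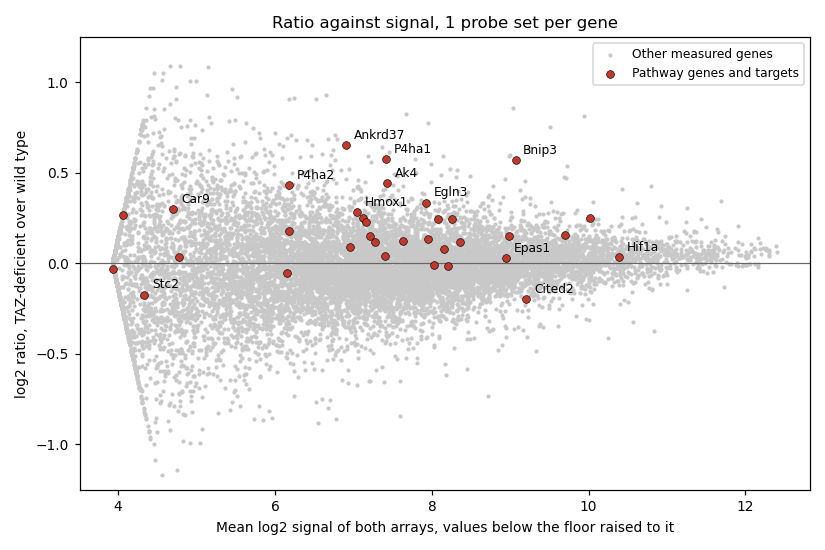
Log2 ratios, TAZ-deficient over wild type (y axis), against the mean log2 signal of both arrays (x axis), 1 point per measured gene, with the 34 pathway genes in red. The 12 measured genes beyond 1.2 on the y axis in either direction are not drawn. Most red points lie above 0, and Bnip3 stands at the upper edge of the genes of its signal.

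Among HIF subunits and oxygen sensors, the alpha subunits read nearly the same in both pools. Hif1a, the broadly expressed alpha subunit, read 1355.0 in TAZ-deficient and 1320.0 in wild type lung, a log2 ratio of 0.04. Its second brightest probe set read 215.0 in TAZ-deficient and 243.3 in wild type lung (-0.18), and another had a ratio of 0.09, so the direction was not the same at all probe sets. Epas1 encodes HIF2A, an alpha subunit prominent in endothelium. It read 499.0 in TAZ-deficient and 488.3 in wild type lung (log2 ratio 0.03), while its dimmer probe set had a ratio of -0.14.

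The probe sets of Arnt, the beta subunit, disagreed widely. Its brightest probe set read 258.6 in TAZ-deficient and 235.8 in wild type lung (log2 ratio 0.13). The second brightest read 103.3 in TAZ-deficient and 242.8 in wild type lung, 2.35-fold lower (log2 ratio -1.23). The remaining probe sets above the floor had ratios of 0.09 and 0.06. The low reading therefore belonged to 1 of 4 probe sets, and the array gives no single direction for Arnt.

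The oxygen sensors did not read alike. Egln3 (PHD3), a prolyl hydroxylase that is itself a HIF target, was the highest of the 8 subunits and sensors. It read 273.4 in TAZ-deficient and 216.5 in wild type lung, 1.26-fold higher, and its dimmer probe set read 90.0 in TAZ-deficient and 57.8 in wild type lung (log2 ratio 0.64). Both probe sets were thus higher in the TAZ-deficient pool.

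Egln1 (PHD2), the main prolyl hydroxylase acting on HIF1A and also a HIF target, read 342.8 in TAZ-deficient and 315.8 in wild type lung (log2 ratio 0.12, and 0.17 at its other probe set). Egln2 (PHD1), which has no comparable induction by hypoxia, read 293.9 in TAZ-deficient and 296.2 in wild type lung. Its ratio of -0.01 turned positive under the other 3 scalings of the arrays. Hif1an, the asparaginyl hydroxylase FIH, read 152.3 in TAZ-deficient and 127.9 in wild type lung (log2 ratio 0.25, and 0.20 at a dimmer probe set). Vhl, the substrate receptor of the ubiquitin ligase, read 171.6 in TAZ-deficient and 166.5 in wild type lung (0.04), with a ratio of -0.13 at its other probe set. Of the 8 genes, 7 had a ratio above 0 (46.8% of all measured genes), 1 was 1.2-fold higher (8.03%) and the median log2 ratio was 0.08. The count above 0 was 5 of 8 when the median over a gene's probe sets was used (45.6% of all measured genes). It was likewise 5 of 8 when shared probe sets, defined by their suffix, were left out (45.3%).

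Of the 4 measured mitochondrial targets, 4 had a ratio above 0 (46.8% of all measured genes) and 2, Bnip3 and Ak4, were at least 1.2-fold higher (8.03%). Bnip3, a mitophagy receptor of the outer mitochondrial membrane, read 655.0 in TAZ-deficient and 440.2 in wild type lung, 1.49-fold higher. It has 1 probe set, so no second reading of the gene was available. Ak4, an adenylate kinase of the mitochondrial matrix, read 200.8 in TAZ-deficient and 147.6 in wild type lung, 1.36-fold higher. Its other 2 probe sets above the floor read 175.5 and 55.2 in TAZ-deficient and 138.3 and 37.2 in wild type lung, with log2 ratios of 0.34 and 0.57. All 3 readings of Ak4 were therefore on the same side.

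Fam162a, a mitochondrial protein linked to cell death in hypoxia, was bright, at 1129.1 in TAZ-deficient and 948.8 in wild type lung (1.19-fold higher). Higd1a, a small inner membrane protein that binds respiratory complexes, read 874.5 in TAZ-deficient and 783.3 in wild type lung, with log2 ratios between 0.12 and 0.20 at its 3 probe sets. The median log2 ratio of the 4 mitochondrial genes was 0.35.

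Of the 4 collagen hydroxylases, 4 had a ratio above 0 (46.8% of all measured genes) and 2, P4ha1 and P4ha2, were at least 1.2-fold higher (8.03%), with a median log2 ratio of 0.34. These enzymes use oxygen to hydroxylate proline and lysine in collagen chains. P4ha1, the main catalytic subunit of prolyl 4-hydroxylase, read 208.8 in TAZ-deficient and 139.9 in wild type lung, 1.49-fold higher. Its other probe set read 163.9 in TAZ-deficient and 110.7 in wild type lung, so that the log2 ratios of 0.58 and 0.57 were nearly equal. P4ha2, the second catalytic subunit, read 84.5 in TAZ-deficient and 62.5 in wild type lung, 1.35-fold higher at its only probe set.

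The lysyl hydroxylases of collagen lay within 1.2-fold. Plod2 read 295.2 in TAZ-deficient and 248.9 in wild type lung (1.19-fold), but its other probe set read 224.5 in TAZ-deficient and 224.0 in wild type lung. Plod1 read 157.0 in TAZ-deficient and 141.2 in wild type lung (1.11-fold).

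Ankrd37, a small ankyrin repeat protein strongly induced by HIF, had the highest ratio of the list and stood 101st from the top of 12032 measured genes. It read 150.6 in TAZ-deficient and 95.8 in wild type lung, 1.57-fold higher, at its only probe set. P4ha1 and Bnip3 stood at positions 160 and 162. In the middle of the list the differences were much smaller. Ddit4, an inhibitor of mTORC1 induced by hypoxia and by other stresses, read 533.1 in TAZ-deficient and 479.3 in wild type lung (1.11-fold).

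The vascular signals gave no common answer. Vegfa, the endothelial growth factor that is the best known HIF target, read 162.0 in TAZ-deficient and 149.1 in wild type lung at its brighter probe set (log2 ratio 0.12). At its other probe set it read 66.8 in TAZ-deficient and 77.8 in wild type lung (-0.22). Adm, the vasodilator peptide adrenomedullin, was close to the floor, at 18.3 in TAZ-deficient and 15.2 in wild type lung. The wild type signal of Adm equalled the floor, so no value was raised there, and the fold only just passed 1.2. The other probe set of Adm read 16.0 in TAZ-deficient and 14.3 in wild type lung. With that wild type value raised to the floor, its log2 ratio was 0.07.

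The membrane carbonic anhydrases, which buffer pH around hypoxic cells, were dim. Car9 read 28.9 in TAZ-deficient and 23.5 in wild type lung (1.23-fold higher). Car12 read 11.9 in TAZ-deficient lung and just over the floor in wild type lung, and no fold is given.

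The Jumonji oxygenases, which share their oxygen and iron chemistry with the HIF hydroxylases, lay within 1.2-fold. Kdm3a, a histone H3 lysine demethylase and HIF target, read 332.2 in TAZ-deficient and 280.0 in wild type lung (1.19-fold). Jmjd6, a nuclear lysyl hydroxylase, read 155.4 in TAZ-deficient and 132.7 in wild type lung (1.17-fold), with a log2 ratio of 0.15 at its second probe set. Kdm4b, another histone demethylase, read 70.1 in TAZ-deficient and 72.8 in wild type lung.

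The 4 transcription regulators had a median log2 ratio of 0.01, with 2 ratios above 0 (46.8% of all measured genes) and 2 below. Cited2, which competes with the HIF alpha subunits for the coactivators CBP and p300, had the lowest ratio of the 34 genes. It read 551.6 in TAZ-deficient and 632.7 in wild type lung (1.15-fold lower), and its other probe set had a log2 ratio of -0.06. Bhlhe40, a basic helix-loop-helix repressor, read 76.9 in TAZ-deficient and 67.8 in wild type lung (1.13-fold higher).

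Mxi1, an antagonist of MYC, read 259.5 in TAZ-deficient and 261.3 in wild type lung, and the sign of its ratio turned under the other 3 scalings of the arrays. The nuclear receptor gene Rora was dim at all 9 probe sets. The 4 above the floor had log2 ratios from -0.43 to 0.48, so they give no direction.

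Of the remaining targets, Hmox1, the heme oxygenase induced by heme and oxidative stress as well as by hypoxia, read 146.0 in TAZ-deficient and 119.8 in wild type lung (1.22-fold higher). Ero1a, the disulfide oxidase of the endoplasmic reticulum, read 207.3 in TAZ-deficient and 190.4 in wild type lung, with log2 ratios from 0.02 to 0.17 at 3 probe sets. Wsb1, an adaptor of a ubiquitin ligase, read 293.8 in TAZ-deficient and 278.0 in wild type lung (1.06-fold higher). These 3 genes were on the same side as Ankrd37, at smaller sizes.

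Ndrg1, a stress-response gene often used as a hypoxia marker, read 128.6 in TAZ-deficient and 120.8 in wild type lung. Its 5 probe sets had log2 ratios from -0.21 to 0.09, 3 above 0 and 2 below. Stc2, a secreted stanniocalcin, was dim, with 19.0 in TAZ-deficient and 21.4 in wild type lung at its brightest probe set and ratios above 0 at the other 2. Neither gene had a direction shared by its probe sets.

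Agreement between probe sets was then compared with the array as a whole, a count chosen after the values were seen. For 20 pathway genes the 2 brightest probe sets above the floor could be compared. Both were above 0 in 12 of the 20, against 27% of 5637 genes, and both below 0 in 2 (Cited2 and Mxi1), against 31.1%. They had opposite signs in 6, namely Arnt, Hif1a, Epas1, Vhl, Vegfa and Stc2, against 41.3%. The 12 genes with both above 0 include Ndrg1 and Rora, whose dimmer probe sets reached log2 ratios of -0.21 and -0.43. They also include Plod2, with 0.00 at its second probe set, and Adm, which was close to the floor. Both probe sets were at least 1.2-fold higher for P4ha1, Ak4 and Egln3, 3 of 20 genes, against 1.38% of all such genes, and for none were both 1.2-fold lower (2.09%). Over the 66 probe sets of the pathway above the floor, 50 had a ratio above 0, against 47.1% of 21294 probe sets. At least 1.2-fold higher were 15 of the 66 (9.21% of all) and at least 1.2-fold lower 2 (11.7%), which belonged to Arnt and Rora. At 1.5-fold, 2 were higher (1.62%), of Ankrd37 and Egln3, and 1, of Arnt, was lower (1.81%).

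**Figure D3:**
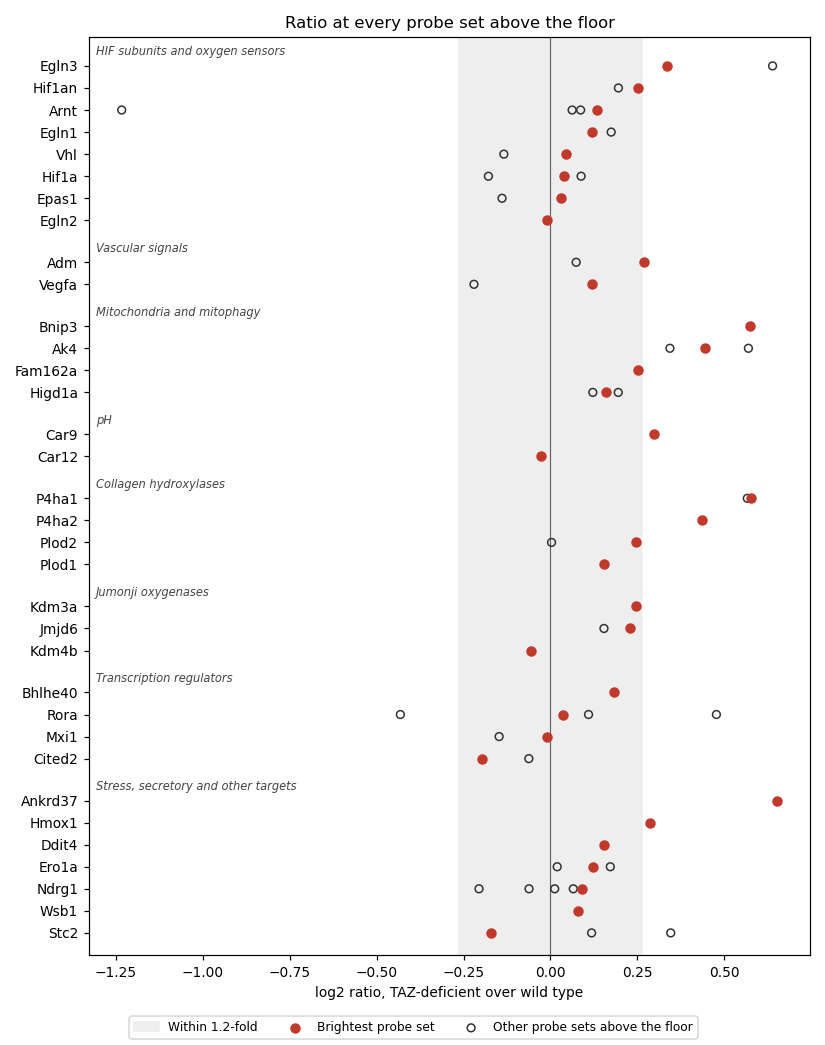
Log2 ratios, TAZ-deficient over wild type (x axis), at each of 66 probe sets above the floor, by gene. Filled points are the brightest probe set of a gene, open points its others, and the grey band is within 1.2-fold. The points of P4ha1, Ak4 and Egln3 all lie to the right of the band, and those of Arnt are split by 1 probe set at -1.23.

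The HIF core motif was looked for in the promoters. HIF binds a core of 5 letters, ACGTG or GCGTG, which was searched on both strands in windows from 250 bases before to 50 after each annotated start, from RefSeq on GRCm38.p6. A palindrome CACGTG, which is also the motif of other basic helix-loop-helix factors, counts as a match on each strand. The table had windows for 28 of the 35 genes. The 4 windows below are those of the genes with the highest ratios among genes with a single window, written 5′ to 3′ along the gene with the matches in capitals.
Ankrd37, GRCm38.p6, chr8:45999801-46000100, minus strand: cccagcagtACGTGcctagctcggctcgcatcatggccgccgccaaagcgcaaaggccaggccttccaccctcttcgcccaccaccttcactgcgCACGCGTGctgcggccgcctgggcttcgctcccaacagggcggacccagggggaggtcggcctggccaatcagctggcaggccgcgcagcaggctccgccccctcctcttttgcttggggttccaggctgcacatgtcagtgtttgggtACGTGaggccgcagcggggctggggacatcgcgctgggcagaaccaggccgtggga
P4ha1, GRCm38.p6, chr10:59323046-59323345, plus strand: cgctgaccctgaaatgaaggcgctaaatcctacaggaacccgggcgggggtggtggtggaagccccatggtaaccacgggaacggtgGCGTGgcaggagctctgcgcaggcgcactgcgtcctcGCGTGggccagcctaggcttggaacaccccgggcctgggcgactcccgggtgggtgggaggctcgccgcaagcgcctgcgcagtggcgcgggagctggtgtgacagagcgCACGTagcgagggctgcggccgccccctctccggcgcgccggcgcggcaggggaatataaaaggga
Bnip3, GRCm38.p6, chr7:138909457-138909756, minus strand: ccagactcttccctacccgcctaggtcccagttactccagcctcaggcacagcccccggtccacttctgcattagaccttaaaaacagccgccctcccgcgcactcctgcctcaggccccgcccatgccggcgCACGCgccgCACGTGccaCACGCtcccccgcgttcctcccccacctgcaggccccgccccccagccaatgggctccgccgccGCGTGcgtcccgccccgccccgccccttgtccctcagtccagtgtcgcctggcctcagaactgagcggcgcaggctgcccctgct
P4ha2, GRCm38.p6, chr11:54100674-54100973, plus strand: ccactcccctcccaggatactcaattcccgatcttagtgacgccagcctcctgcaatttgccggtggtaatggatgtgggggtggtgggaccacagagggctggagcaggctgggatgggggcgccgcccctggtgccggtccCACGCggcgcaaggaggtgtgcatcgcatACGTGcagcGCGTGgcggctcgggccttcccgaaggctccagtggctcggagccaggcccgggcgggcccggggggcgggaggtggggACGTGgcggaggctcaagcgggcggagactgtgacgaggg

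The Ankrd37 window held 4 matches, of which the one nearest the start began 6 bases before it. The P4ha1 window held 3, the nearest beginning 16 bases before the start. Bnip3 had 5, among them a CACGTG palindrome whose matches began at positions -108 and -107, and P4ha2 had 4, among them one just after the start. In the first window of each gene, 23 of 28 pathway genes (82.1%) held either motif, against 63.6% of 9727 measured genes and 43.8% of all genes in the table. ACGTG alone was in 17 of 28 (60.7%), against 25.9% of measured genes and 19.7% of all genes. High shares were not particular to these genes. Either motif was in 73.7% of 19 glycolytic hypoxia targets and 72% of 25 other non-glycolytic targets, and ACGTG in 47.4% and 36%. Among 24 paralogues of the pathway genes the shares were 58.3% and 20.8%.

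The windows of the pathway genes had a median GC content of 64.3%, against 61.3% for measured genes, and the motifs contain CG. Cited2 and Stc2, with the lowest ratios, also held matches, while Hif1an (log2 ratio 0.25) held none in its window. A match is a string of letters and not a measured binding site.

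**Figure D4:**
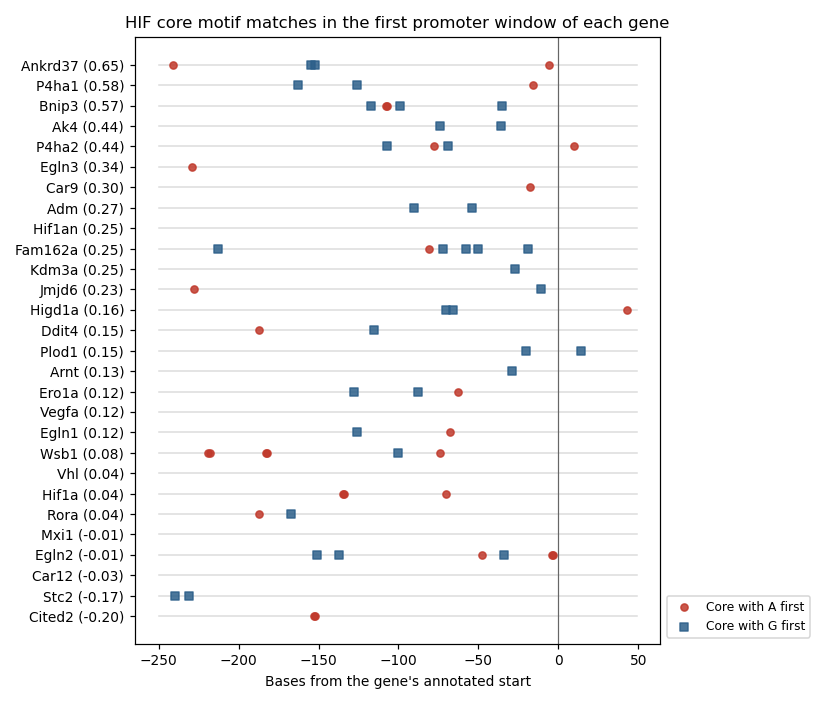
Positions of the core motif matches (x axis, bases from the annotated start) in the first promoter window of 28 genes, ordered by log2 ratio (TAZ-deficient over wild type, in brackets) from the highest at the top. Circles are the core beginning with A and squares the core beginning with G, on either strand. Matches occur along the whole order of ratios, from Ankrd37 to Cited2.

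Other genes of the pathway and of the response were compared as lists. Of 12 further pathway components, such as coactivators and subunits of the ubiquitin ligase, 10 were measured, 7 had a ratio above 0 (46.8% of all measured genes) and the median log2 ratio was 0.05. The count depended on the choice of probe set. With the median over a gene's probe sets, 4 of 10 were above 0 (45.6% of all measured genes), and 4 of 9 without shared probe sets (45.3%). The list's median log2 ratios were then -0.01 and -0.02, near the -0.02 of all measured genes under either choice. Siah2, a ubiquitin ligase that targets the prolyl hydroxylases, read 54.6 in TAZ-deficient and 42.9 in wild type lung (1.27-fold higher), but 43.3 in TAZ-deficient and 44.8 in wild type lung at its other probe set. Hif3a, an alpha subunit that is itself induced by hypoxia, read 408.0 in TAZ-deficient and 357.8 in wild type lung. Its 5 probe sets above the floor had log2 ratios from 0.19 to 0.31. The coactivator gene Crebbp (427.8 in TAZ-deficient and 386.9 in wild type lung) and the elongin gene Eloc (1111.4 in TAZ-deficient and 1020.2 in wild type lung) had ratios of 0.14 and 0.12, and the dimmer probe sets of Eloc were below 0.

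Hypoxia targets outside both glycolysis and the 35 genes lay on both sides of 0. Of 37 listed, 32 were measured and 19 had a ratio above 0 (46.8% of all measured genes). At least 1.2-fold higher were 3 (8.03%) and at least 1.2-fold lower 3 (10.6%), and the median log2 ratio was 0.03. Tfrc, the transferrin receptor, was the only one at least 1.5-fold different. It read 744.3 in TAZ-deficient and 479.1 in wild type lung (1.55-fold higher), with log2 ratios of 0.62 and 0.58 at its other probe sets. Tfrc is also abundant in erythroid cells. Rcor2, a corepressor gene, read 75.5 in TAZ-deficient and 53.6 in wild type lung (1.41-fold higher).

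In the other direction, Angpt2, a ligand of the endothelial receptor TIE2, read 23.0 in TAZ-deficient and 32.4 in wild type lung (1.41-fold lower). Angptl4, an inhibitor of lipoprotein lipase, read 89.5 in TAZ-deficient and 124.3 in wild type lung (1.39-fold lower).

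The glycolytic hypoxia targets were mostly higher. Of 17 measured, 15 had a ratio above 0 (46.8% of all measured genes) and 10 were at least 1.2-fold higher (8.03%). Their median log2 ratio was 0.31, and that of the 26 measured targets among the 35 genes was 0.17. Slc16a3, the lactate exporter MCT4, was the highest, at 125.8 in TAZ-deficient and 67.1 in wild type lung (1.87-fold) at its only probe set. Slc2a1, the glucose transporter, Pfkl, a phosphofructokinase, and Hk2, a hexokinase, had log2 ratios of 0.60, 0.54 and 0.48. These values are close in size to those of Bnip3, P4ha1 and Ak4.

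Paralogues of the pathway genes were a further comparison, most of them not known as HIF targets. The list also holds P4hb (log2 ratio 0.05), which is a partner subunit of P4ha1 and not a paralogue. Of the 29 genes listed, 25 were measured and 11 had a ratio above 0 (46.8% of all measured genes). None was 1.2-fold higher (8.03%) and 3 were 1.2-fold lower (10.6%), with a median log2 ratio of -0.03. Vegfd, Wsb2 and Vegfc were the 3 lower ones, by their brightest probe sets. Wsb2 had a log2 ratio of -0.31 there, but -0.01 at its other probe set above the floor. Vegfc had -0.30 there, but -0.01 and 0.06 at its others. Vegfd read 309.6 in TAZ-deficient and 413.1 in wild type lung (1.33-fold lower) at its brightest probe set, with ratios of -0.07 and 0.00 at the others. Mxd4, a relative of Mxi1, read 271.3 in TAZ-deficient and 322.7 in wild type lung (log2 ratio -0.25). Stc1 and Kdm4c are also known targets and stand in both lists. No test of the differences between lists was possible with 1 array per group.

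**Figure D5:**
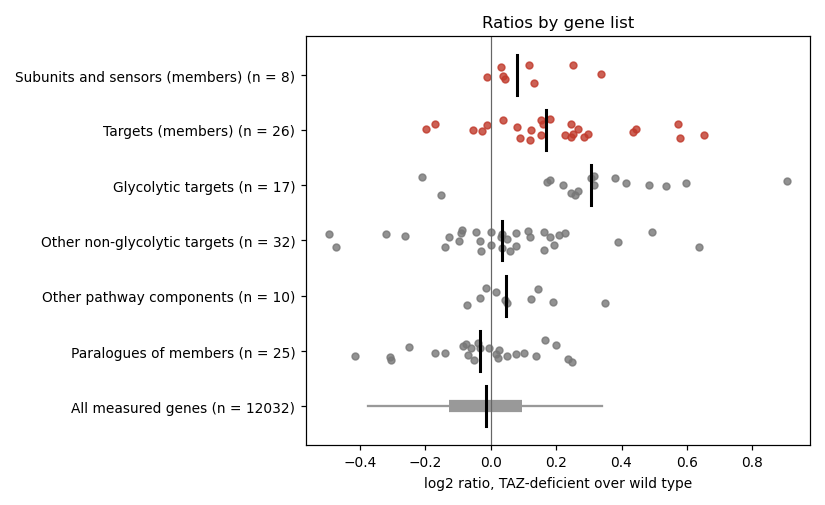
Log2 ratios, TAZ-deficient over wild type (x axis), for the measured genes of 6 lists, 1 point per gene, with the median as a black bar. The bottom row gives all 12032 measured genes as the 25th to 75th percentile (thick bar) and the 5th to 95th (line). Medians are 0.31 for glycolytic targets and 0.17 for the targets described here, against -0.01 for all measured genes.

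The labels of the arrays and the tissue were checked on marker genes. Wwtr1 read 11.3 in TAZ-deficient and 791.2 in wild type lung, at least 52.1-fold lower. The lung epithelial markers Sftpc and Nkx2-1 were present in both pools, at 4121.5 and 60.6 in TAZ-deficient and 4142.5 and 61.1 in wild type lung. Of 6 endothelial markers 1 had a ratio above 0, and of 6 lung epithelial markers 4 (46.8% of all measured genes). None was 1.2-fold different in either list (8.03% higher and 10.6% lower). Of 8 erythroid markers, 5 were measured, and their summed signal was 4054.1 in TAZ-deficient and 1917.3 in wild type lung. That difference came from 3 embryonic globins, which were between 3.05-fold and 3.60-fold higher, while Alas2 and Slc4a1 were 1.09-fold and 1.32-fold lower. Epb42 was below the floor, and so was Hba-a1 at the only probe set that names it alone. Probe sets naming several genes were not used, so that reading does not show whether Hba-a1 was expressed. Smooth muscle markers summed to 3605.0 in TAZ-deficient and 3890.2 in wild type lung. Of these, 5 of 5 ratios were below 0 and 3 genes were at least 1.2-fold lower (10.6% of all measured genes), among them Cnn1 at 79.0 in TAZ-deficient and 118.6 in wild type lung (1.5-fold lower). Heart muscle markers summed to 119.9 in TAZ-deficient and 171.6 in wild type lung over 3 of 5 genes, with Myh6 and Actn2 below the floor. All 3 ratios were below 0 at the brightest probe sets, and 2 genes were at least 1.5-fold lower (1.47%). They were Myl7, at 46.2 in TAZ-deficient and 83.6 in wild type lung, and Tnnt2, at 20.1 in TAZ-deficient and 30.6 in wild type lung. Myl4 had a log2 ratio of -0.10 there, but 0.34 at a dimmer probe set. With the median over probe sets, 1 of the 3 was above 0 (45.6% of all measured genes). Leukocyte markers summed to 1069.7 in TAZ-deficient and 1181.2 in wild type lung, with 1 of 6 ratios above 0 (46.8% of all measured genes). In this list 3 genes, C1qa, C1qb and C1qc, were at least 1.2-fold lower (10.6%). Mesenchyme markers summed to 6321.9 in TAZ-deficient and 6394.7 in wild type lung, with 2 of 6 ratios above 0 (46.8%). Among them 1 gene, Tbx5, was at least 1.2-fold lower (10.6%). Of 4 liver markers only Alb passed the floor, on the wild type array. The part of these cell types in the pathway's ratios was not tested. Control probe sets at the 3′ and 5′ ends of a transcript, whose quotient (3′ over 5′) is a sign of RNA quality, gave 1.21 in TAZ-deficient and 1.23 in wild type lung for Actb, and 0.82 in TAZ-deficient and 0.79 in wild type lung for Gapdh.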

How the data were processed

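Whole lung RNA of TAZ-deficient and wild type embryos was measured on 1 array per group. The deposited values are intensity readings on a linear scale, a single one for every probe set on an array. Per the submitters' processing notes GCOS and MAS5 were involved, in versions not given in the sources used here. Trimming 2% at either end left a mean of 100.001 on both arrays, so the arrays share a global scaling. No detection call was used. Signals ran from 0 to 5541.4 on the TAZ-deficient and from 0 to 5348.1 on the wild type array.

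Of 45037 non-control probe sets, 34945 named 1 gene, 932 several and 9160 had no gene in the annotation. Older symbols were replaced by way of their Entrez identifiers with those of RefSeq on GRCm38.p6. A gene's brightest probe set, by mean log2 signal, stood for it. Values under the median signal were raised to it. Genes were counted past 1.2-fold and 1.5-fold, and no test was run. The genes at least 1.2-fold different, the subunits and the sensors are named with both signals, and other lists by up to 4 genes of largest ratio. Further examples were chosen after their values were seen. The members and lists were chosen with earlier results of these data known, so the lists are not independent support. Alternatives were the floor, the scaling (median centring, quantile normalization, loess), the median over probe sets, and leaving out shared probe sets. Shared here means any probe set with the suffix _s_at, _x_at or _a_at. The suffix alone does not show that a probe set matches another gene. The counting was tested on simulated data. Python 3.11.15, numpy 2.4.6, pandas 2.3.3 and statsmodels 0.14.6 were used. Precision is limited by the number of arrays.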

Additional observations from a re-analysis of the deposited data

How the results depend on the processing

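The 9 genes at least 1.2-fold higher kept a ratio above 0 under all 7 alternatives to floor, scaling and probe set, wherever they were measured. They were picked by the size of their ratio, so a kept sign was likely from the start. Ankrd37, Bnip3, P4ha2, Car9 and Hmox1 have 1 probe set each, without the suffix of shared sets. The choice of probe set therefore could not change their ratios. Of the 25 genes within 1.2-fold, 9 had the other sign under some alternative. Of 227 ratios of single genes under an alternative, 223 moved by less than the probe set SD of 0.20. The exceptions were Arnt and Hif1a without shared probe sets (-1.23 and -0.18), Car12 at the 25th percentile floor (-0.38) and Stc2 with the median over probe sets (0.12). Small moves were likely from the start. Median centring shifts every ratio alike, and another floor leaves a ratio unchanged where both signals exceed both floors. The count of 223 is therefore not a measure of how exact the ratios are. The median log2 ratio of the pathway genes ran from 0.12 to 0.17.

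The count of genes with a ratio above 0 was 30 of 34 under median centring, quantile normalization and loess (50%, 47.9% and 48.8% of all measured genes), and 22 of 31 without shared probe sets (45.3%). The count at least 1.2-fold higher was 11 of 34 under those 3 scalings (8.69%, 8.92% and 9.13%), 9 of 34 at the 25th percentile floor (14%) and 6 of 26 at the 75th percentile floor (3.19%). It was 8 of 34 with the median over probe sets (7.12%) and 8 of 31 without shared probe sets (8.39%), where Adm had a log2 ratio of 0.07. The count at least 1.5-fold higher was 3 under median centring (1.35%), 2 under quantile normalization (1.39%) and loess (1.4%), and 0 at the 75th percentile floor (0.198%). Car12 at the 25th percentile floor and Arnt without shared probe sets each made 1 gene at least 1.2-fold lower (18.3% and 11.5% of all measured genes), and Arnt also 1 at least 1.5-fold lower (1.74%). The median of the further pathway components was -0.01 when the median over probe sets was used, and -0.02 if shared probe sets were left out. Over all measured genes it was -0.02 under either choice. Over all genes the counts past 1.5-fold were 844 higher and 1150 lower at the 25th percentile floor, 14 higher and 12 lower at the 75th percentile floor, and 154 higher and 177 lower at the median floor.

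Further settings were chosen after seeing the data. Counting every probe set gave 50 above 0, 15 at least 1.2-fold higher, 2 at least 1.2-fold lower, 2 at least 1.5-fold higher and 1 at least 1.5-fold lower. With both signals above the 75th percentile, 5 genes were at least 1.2-fold higher and 0 at least 1.5-fold higher. No paired analysis was possible because each group is 1 array.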

Other observations

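Other stress responses that share genes with the hypoxia response were also compared. Of 8 targets of NRF2, the factor that answers oxidative stress and also induces Hmox1, 5 were measured. Their median log2 ratio was 0.01. Gclm, a subunit of the enzyme that makes glutathione's precursor, read 190.6 in TAZ-deficient and 231.4 in wild type lung (1.21-fold lower). Gclc, its catalytic partner, read 151.8 in TAZ-deficient and 138.4 in wild type lung (1.10-fold higher).

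Of 9 genes of the ATF4 amino acid and unfolded protein response, 8 were measured, with a median log2 ratio of 0.10. A ratio above 0 was seen in 6 (46.8% of all measured genes). At least 1.2-fold higher were 2 (8.03%) and at least 1.2-fold lower 2 (10.6%), 1 of them at least 1.5-fold (1.47%). Ddit3, the transcription factor CHOP, read 46.1 in TAZ-deficient and 34.8 in wild type lung (1.32-fold higher), and Atf3 read 30.7 in TAZ-deficient and 24.2 in wild type lung (1.27-fold higher). Chac1 read 13.2 in TAZ-deficient and 18.4 in wild type lung, at least 1.21-fold lower. Sesn2 was at least 1.91-fold lower at its brightest probe set. It had opposite readings at its probe sets, 14.9 and 23.5 in TAZ-deficient against 29.0 and 14.7 in wild type lung. All of these signals were dim.

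Of 10 glucocorticoid-responsive genes, the metallothioneins Mt2 and Mt1 were 8.46-fold and 2.98-fold lower in TAZ-deficient lung. Of the other 8, 6 had a ratio above 0 (46.8% of all measured genes) and 2 below. Tsc22d3 read 293.6 in TAZ-deficient and 331.9 in wild type lung (1.13-fold lower), and Per1 72.6 in TAZ-deficient and 78.7 in wild type lung (1.08-fold lower). Zbtb16 read 33.9 in TAZ-deficient and 26.1 in wild type lung (1.3-fold higher), and the kinase gene Sgk1 read 344.5 in TAZ-deficient and 285.0 in wild type lung (1.21-fold higher). The median log2 ratio of the 10 was 0.04.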
